A study of Homo sapiens with 12 samples.

Results

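Kinesins are motor proteins that move along microtubules or shorten them. The members described here are the protein-coding genes whose symbol is KIF or KIFC followed by a digit in the count tables of both cell lines, 41 genes of the 48283 features listed in either table. From their known roles 13 were placed in a mitotic class, 15 in a transport class and 13 in a class of other kinesins, which act in cilia, in signalling or on microtubule ends. These classes were set with earlier results of these data known. RNA came from the uveal melanoma cell lines 92.1 and MP38 after 72 h with VE-822 (berzosertib), an inhibitor of the replication stress kinase ATR, or with the solvent DMSO. There were 3 poly(A) libraries in each of 4 groups: 92.1 with VE-822, 92.1 with DMSO, MP38 with VE-822 and MP38 with DMSO. VE-822 was given at a dose adjusted per line so that near 40% of cells stayed viable; the dose itself is not given in the sources used here, and dose and line cannot be told apart. Whether a group's libraries are separate cultures is not stated, so the p-values reflect the spread among libraries, which may be technical.

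Kinesins of mitosis separate the spindle poles, move and align chromosomes and complete cytokinesis, and as a group their genes are transcribed mostly in G2 phase and mitosis. Transport kinesins carry vesicles, organelles and ciliary components towards microtubule ends at all stages of the cell cycle. Melanocytes, the lineage of uveal melanoma, also use such motors to form and move melanosomes. The comparison asks how each kinesin transcript responded to ATR inhibition in each line, and whether motors of division and motors of transport responded alike.

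Library totals were 113370680 to 137664800 reads with VE-822 and 112374503 to 123705501 with DMSO in 92.1, and 54415628 to 60891725 with VE-822 and 61045071 to 63638976 with DMSO in MP38. DMSO library 3 of 92.1 stood apart from the other libraries of that line along the second principal component, which held 13.6% of the variance, so counts of genes called in 92.1 are also given without it, as are values of named genes whose call or direction changed. The melanocyte genes MITF, PMEL, MLANA, SOX10 and TYR were present in every library, and PMEL, a melanosome fibre protein, had 530.2 to 1970 FPKM (reads scaled for feature length and library total). KRT5, KRT14, PTPRC and PECAM1, which mark epithelial, immune and endothelial cells, stayed at or below 0.072 FPKM.

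Promoters of several members are shown first, because many genes transcribed in G2 phase and mitosis carry a CCAAT box, which binds the factor NF-Y, and a CHR motif (TTTGAA or TTCGAA), through which the DREAM and MMB complexes bind. Each window holds 250 bases before and 50 bases from the RefSeq transcript start on GRCh38.p14 and reads 5′ to 3′ on the strand of the gene. Capitals mark the motifs on either strand, so a CCAAT box on the other strand reads ATTGG and TTTGAA reads TTCAAA, while TTCGAA reads the same on both strands. KIF18B, KIF4A, KIF11, KIF23 and KIF22 are mitotic kinesins with both motifs. KIF20A is a mitotic kinesin with CCAAT boxes alone, and KIF24 and KIF5B are the 2 with both motifs among the 11 transport and 9 other kinesins with a promoter in the RefSeq table.
KIF18B (chr17:44947724-44948023, minus strand): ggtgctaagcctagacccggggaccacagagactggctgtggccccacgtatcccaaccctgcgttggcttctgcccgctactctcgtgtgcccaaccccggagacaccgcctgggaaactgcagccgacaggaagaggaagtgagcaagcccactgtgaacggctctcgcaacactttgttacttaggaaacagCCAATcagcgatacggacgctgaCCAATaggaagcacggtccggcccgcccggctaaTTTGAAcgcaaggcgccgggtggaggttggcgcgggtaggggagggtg
KIF4A (chrX:70289854-70290153, plus strand): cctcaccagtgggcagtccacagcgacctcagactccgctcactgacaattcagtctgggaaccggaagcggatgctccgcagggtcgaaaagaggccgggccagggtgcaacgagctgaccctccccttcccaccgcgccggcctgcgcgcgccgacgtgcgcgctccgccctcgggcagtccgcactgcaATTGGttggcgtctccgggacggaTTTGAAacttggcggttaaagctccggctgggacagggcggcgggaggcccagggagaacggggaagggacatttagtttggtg
KIF11 (chr10:92592880-92593179, plus strand): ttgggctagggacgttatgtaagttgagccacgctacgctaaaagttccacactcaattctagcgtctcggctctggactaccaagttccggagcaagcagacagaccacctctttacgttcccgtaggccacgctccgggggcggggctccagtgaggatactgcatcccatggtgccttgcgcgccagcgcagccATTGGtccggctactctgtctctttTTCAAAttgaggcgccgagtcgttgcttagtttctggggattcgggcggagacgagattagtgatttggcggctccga
KIF23 (chr15:69414099-69414398, plus strand): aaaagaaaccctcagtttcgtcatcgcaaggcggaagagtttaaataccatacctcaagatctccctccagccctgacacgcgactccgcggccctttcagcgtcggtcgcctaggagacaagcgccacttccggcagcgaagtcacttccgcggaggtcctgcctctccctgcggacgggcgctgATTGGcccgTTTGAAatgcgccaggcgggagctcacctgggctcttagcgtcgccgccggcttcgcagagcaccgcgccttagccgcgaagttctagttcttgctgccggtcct
KIF22 (chr16:29790501-29790800, plus strand): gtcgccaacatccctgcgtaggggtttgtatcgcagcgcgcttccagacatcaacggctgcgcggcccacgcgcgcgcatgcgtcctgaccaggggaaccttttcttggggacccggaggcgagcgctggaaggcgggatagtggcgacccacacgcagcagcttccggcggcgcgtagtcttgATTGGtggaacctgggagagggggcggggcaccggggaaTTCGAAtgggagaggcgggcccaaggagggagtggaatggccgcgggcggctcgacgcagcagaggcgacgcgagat
KIF20A (chr5:138178862-138179161, plus strand): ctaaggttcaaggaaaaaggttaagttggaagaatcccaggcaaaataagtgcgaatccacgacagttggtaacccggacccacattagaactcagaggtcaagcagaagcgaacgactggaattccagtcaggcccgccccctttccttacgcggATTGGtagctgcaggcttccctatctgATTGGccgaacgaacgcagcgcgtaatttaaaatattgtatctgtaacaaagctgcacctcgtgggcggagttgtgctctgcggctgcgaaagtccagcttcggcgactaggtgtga
KIF24 (chr9:34329219-34329518, minus strand): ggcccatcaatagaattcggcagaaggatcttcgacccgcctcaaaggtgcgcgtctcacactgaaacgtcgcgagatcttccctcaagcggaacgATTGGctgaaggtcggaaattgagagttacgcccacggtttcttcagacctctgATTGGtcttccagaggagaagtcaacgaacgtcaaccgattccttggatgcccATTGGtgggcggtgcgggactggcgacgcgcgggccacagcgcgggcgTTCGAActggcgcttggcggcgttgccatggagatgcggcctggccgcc
KIF5B (chr10:32056376-32056675, minus strand): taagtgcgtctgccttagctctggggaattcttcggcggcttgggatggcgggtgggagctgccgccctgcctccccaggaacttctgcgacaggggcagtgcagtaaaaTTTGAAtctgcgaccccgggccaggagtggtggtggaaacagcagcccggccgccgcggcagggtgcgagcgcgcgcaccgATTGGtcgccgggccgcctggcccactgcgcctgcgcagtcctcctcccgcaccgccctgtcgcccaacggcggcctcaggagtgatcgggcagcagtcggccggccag

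Of the 41 members 33 had a promoter in the RefSeq table, which holds 27305 promoters. A CCAAT box lay in 10 of the 12 mitotic kinesins tested below (83.3%), in 3 of 11 transport kinesins (27.3%), in 3 of 9 other kinesins (33.3%) and in 35.7% of all promoters. TTTGAA or TTCGAA lay in 10 of 12 mitotic kinesins (83.3%), 1 of 11 transport kinesins (9.09%), 1 of 9 other kinesins (11.1%) and 16.6% of all promoters. Both were present in 9 of 12 mitotic kinesins (75%) and in 6.58% of all promoters. KIF15 had the CHR motif alone, and KIF2C had neither in this window. No match in a member's window shared a base with another match. A match is a run of letters and does not show that a factor binds there.

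**Figure D1:**
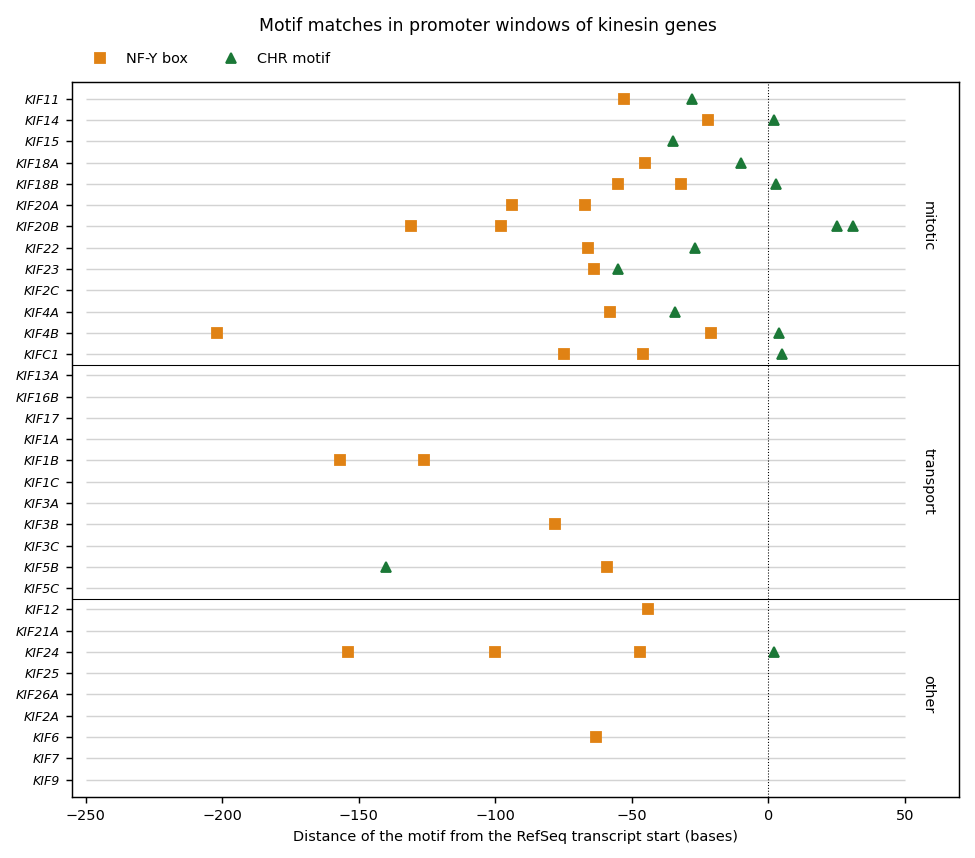
Motif matches in the 300-base promoter windows of the 33 members with a RefSeq promoter, by distance in bases from the transcript start (x axis). Squares are CCAAT boxes and triangles are TTTGAA or TTCGAA on either strand. Most matches are in the upper block, the mitotic class.

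In 92.1 every mitotic kinesin that could be tested fell with VE-822, 12 of 12, with log2 fold changes (VE-822 over DMSO) between -2.37 for KIF15 and -1.46 for KIF22 and a median of -2.01. In MP38 the same 12 genes were tested and all rose, between 0.71 for KIF15 and 1.78 for KIF20A, with a median of 1.06. Medians over all genes tested were 0.03 in 92.1 and -0.01 in MP38. A gene was called when its p from edgeR's quasi-likelihood test, adjusted by Benjamini-Hochberg over all genes of a line, was under 0.05. By that rule 19.6% of all 22943 genes tested were lower in 92.1 and 26.9% of all 21415 genes tested were higher in MP38. None of the 12 genes had overlapping groups in either line, while VE-822 libraries lay wholly below DMSO libraries for 25.1% of all genes in 92.1 and wholly above them for 29.7% in MP38. Without DMSO library 3 of 92.1 all 12 were again called lower, with a median of -2.03, where 29.0% of all genes were lower. RNA was taken from all cells of a library, so fewer dividing cells and less transcript per cell cannot be told apart.

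**Figure D2:**
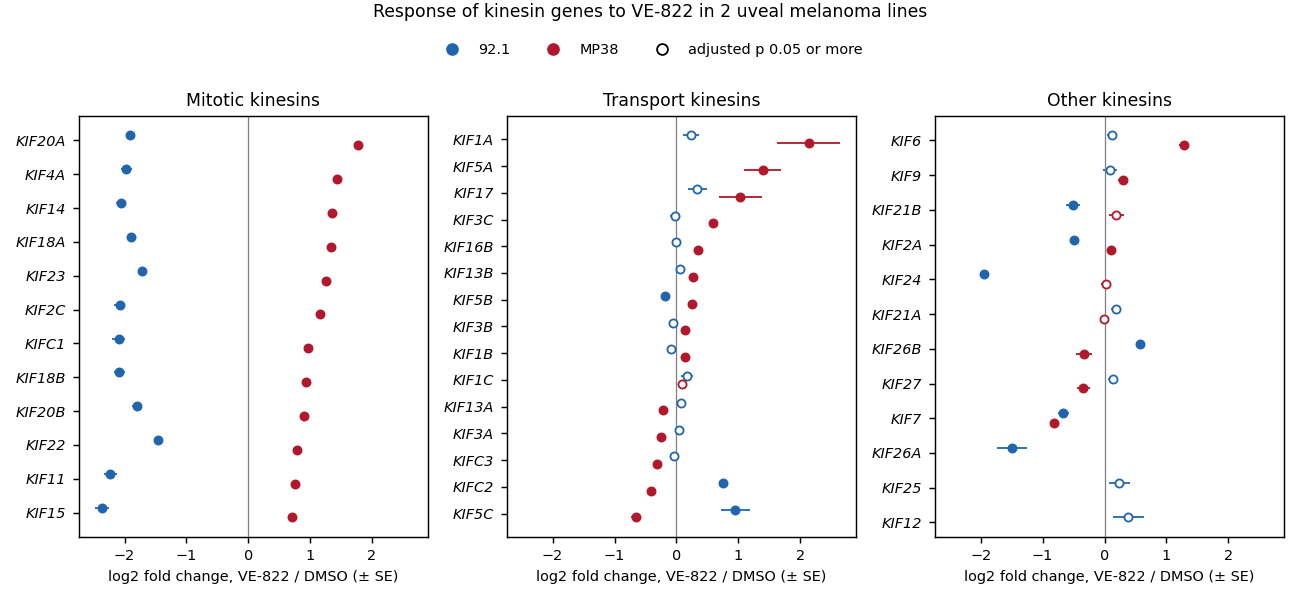
Log2 fold change of VE-822 over DMSO (x axis, with its standard error) for each tested member, in 92.1 (blue) and MP38 (red). Open points have an adjusted p of 0.05 or more. All mitotic kinesins lie left of 0 in 92.1 and right of 0 in MP38, while the transport kinesins of 92.1 lie between -0.18 and 0.95.

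The first group of mitotic motors acts on the spindle poles. KIF11 (Eg5) slides antiparallel microtubules apart and so separates the poles. It had 25.1, 25.5 and 20.7 CPM (TMM-scaled read counts relative to the library total) in the VE-822 libraries of 92.1, against 120.5, 114 and 99.4 CPM in the DMSO libraries. In MP38 it had 64.5, 60.0 and 57.0 CPM with VE-822, against 35.0, 35.1 and 37.1 CPM with DMSO. Treated libraries were thus all low in 92.1 and all high in MP38, with no overlap. The log2 fold change of KIF11 was -2.23 ± 0.09997 (SE, adjusted p = 1.35e-06) in 92.1 and 0.76 ± 0.0469 (adjusted p = 3.14e-11) in MP38. KIF15, at bases 44761721 to 44873376 of chromosome 3 on GRCh38.p13, helps KIF11 to keep the spindle bipolar. Its transcript was at 6.43, 5.98 and 4.67 CPM in treated 92.1 libraries and at 30.7, 30.5 and 27.1 CPM in DMSO libraries, the strongest decrease of the class (-2.37 ± 0.118). In MP38 KIF15 was at 28.1, 26.9 and 29.0 CPM with VE-822 and at 16.7, 16.8 and 17.7 CPM with DMSO, the smallest increase of the class (0.71 ± 0.0506). KIFC1 (HSET) is a minus-end motor that draws spindle poles and extra centrosomes together. VE-822 libraries of 92.1 held 20.8, 19.8 and 16.5 CPM of KIFC1, against 87.0, 84.5 and 72.4 CPM in DMSO libraries (-2.10 ± 0.102). The corresponding MP38 libraries held 39.8, 41.3 and 45.2 CPM with VE-822 and 21.3, 21.5 and 21.7 CPM with DMSO (0.97 ± 0.0499). DMSO library 3 of 92.1 was the lowest DMSO library for all 3 genes and still lay far above every treated library.

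A second group moves chromosomes or acts on the microtubules attached to them. KIF4A is a chromokinesin, a motor carried on chromosome arms, that also works with PRC1 in the central spindle. VE-822 libraries of 92.1 had 14.8, 13.6 and 11.6 CPM of KIF4A, against 53.9, 52.4 and 50.2 CPM in DMSO libraries, a log2 fold change of -1.97 ± 0.0898. In MP38 it reached 66.1, 69.1 and 66.7 CPM with VE-822, against 25.8, 24.6 and 24.6 CPM with DMSO (1.43 ± 0.0418). The near-identical intronless gene KIF4B was too low to be tested, with 6, 6 and 4 reads under VE-822 and 2, 0 and 0 reads under DMSO in 92.1, and 5, 3 and 8 reads under VE-822 and 7, 3 and 2 under DMSO in MP38. It is uncertain because reads of both copies can be confused. KIF22 (Kid), the other chromokinesin of this group, pushes chromosome arms away from the poles. Its values were 28.4, 28.6 and 25.7 CPM with VE-822 and 78.2, 78.5 and 70.6 CPM with DMSO in 92.1, the smallest decrease of the class (-1.46 ± 0.0662). MP38 had 99.0, 97.7 and 102 CPM with VE-822 and 58.7, 57.7 and 57.3 CPM with DMSO (0.78 ± 0.0371). All treated libraries again lay outside the range of the DMSO libraries, below it in 92.1 and above it in MP38.

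KIF18A dampens the movements of chromosomes at the metaphase plate. With VE-822 it stood at 7.95, 7.99 and 7.16 CPM in 92.1, against 28.3, 28.4 and 29.0 CPM with DMSO (-1.89 ± 0.0655). In MP38 it stood at 45.7, 42.4 and 44.1 CPM with VE-822, against 17.1, 17.4 and 18.0 CPM with DMSO (1.33 ± 0.0470). KIF18B limits the length of astral microtubules together with KIF2C. For KIF18B the treated 92.1 libraries gave 13.5, 13.2 and 11.3 CPM and the DMSO libraries 56.4, 56.5 and 47.6 CPM (-2.08 ± 0.0944). MP38 gave 32.7, 34.8 and 34.2 CPM with VE-822 and 18.0, 18.1 and 16.9 CPM with DMSO (0.94 ± 0.0491). KIF2C (MCAK) is a microtubule depolymerase that corrects faulty kinetochore attachments. The treated libraries of 92.1 held 16.3, 15.3 and 12.97 CPM of it and the DMSO libraries 61.1, 60.7 and 66.5 CPM (-2.08 ± 0.0889). In MP38 KIF2C was at 82.1, 82.1 and 84.4 CPM with VE-822 and 38.2, 36.7 and 36.7 CPM with DMSO (1.16 ± 0.0388). In 92.1 the log2 fold change of KIF2C, whose promoter window held neither motif, was close to that of KIF18B, whose window held both, and these 2 genes were not tested against each other. None of the 3 genes had overlapping groups in either line.

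The third group completes division. KIF20A (MKLP2), at bases 138178719 to 138187723 of chromosome 5 on GRCh38.p13, brings the chromosomal passenger complex to the central spindle. It was measured at 18.0, 18.1 and 16.4 CPM in treated 92.1 libraries and at 64.8, 62.4 and 69.7 CPM in DMSO libraries (-1.91 ± 0.0669). In MP38 KIF20A had 65.2, 62.8 and 65.2 CPM with VE-822 and 19.0, 17.8 and 19.6 CPM with DMSO, the largest increase of the class (1.78 ± 0.0457, adjusted p = 9.07e-17). Without stated strand use its reads may include some of CDC23 and BRD8, which overlap it. The same limit holds for KIF15 (overlapped by TMEM42), KIF4A (PDZD11), KIF2A (DIMT1) and KIFC2 (FOXH1), among others. KIF23 (MKLP1) forms the centralspindlin complex with RACGAP1. Its level was 37.5, 35.1 and 33.2 CPM with VE-822 in 92.1, against 115, 116 and 116 CPM with DMSO (-1.71 ± 0.0554). MP38 showed 74.0, 75.3 and 72.7 CPM of KIF23 with VE-822, against 31.3, 29.8 and 32.2 CPM with DMSO (1.25 ± 0.0415). KIF14 recruits citron kinase to the midbody. Treated libraries of 92.1 had 16.8, 15.6 and 14.0 CPM of KIF14, where DMSO libraries had 63.9, 61.2 and 67.8 CPM (-2.05 ± 0.0778). For MP38 the values were 39.4, 39.8 and 37.7 CPM with VE-822 and 15.5, 14.4 and 16.0 CPM with DMSO (1.35 ± 0.0504). KIF20B (MPP1) acts late in cytokinesis. It lay at 32.5, 31.9 and 26.5 CPM in treated 92.1 libraries and at 106, 105 and 107 CPM in DMSO libraries (-1.81 ± 0.0783). In MP38 it lay at 69.1, 64.3 and 58.5 CPM with VE-822 and at 35.1, 33.4 and 34.6 CPM with DMSO (0.90 ± 0.0510). No treated library of either line reached the range of its DMSO libraries for any of these 4 genes.

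**Figure D3:**
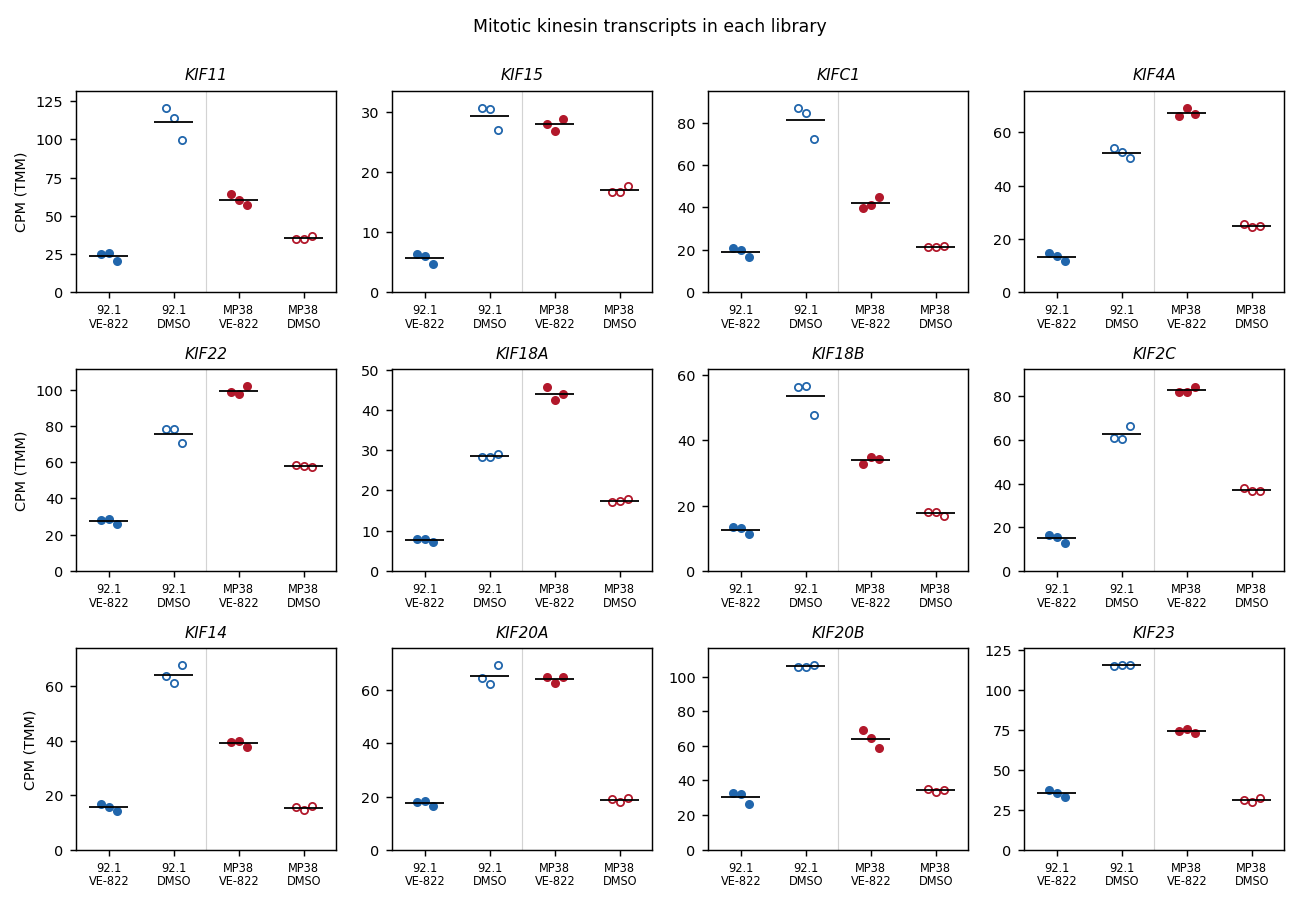
CPM of the 12 tested mitotic kinesins (y axis, TMM-scaled, from 0) in each library of 92.1 (blue) and MP38 (red), with VE-822 (filled) or DMSO (open). Lines are group means of 3 libraries. Treated libraries are below DMSO libraries in 92.1 and above them in MP38 for every gene.

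By role, the 3 spindle pole motors changed by -2.37 to -2.10 in 92.1 and by 0.71 to 0.97 in MP38. The 5 chromosome motors changed by -2.08 to -1.46 in 92.1 and by 0.78 to 1.43 in MP38. The 4 cytokinesis motors changed by -2.05 to -1.71 in 92.1 and by 0.90 to 1.78 in MP38. KIF15, the gene with the strongest decrease in 92.1, thus had the weakest increase in MP38. Over the 12 genes the responses of the lines had a Pearson correlation of 0.179 and a Spearman correlation of 0.343, which describes genes measured in the same libraries and is no test.

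MKI67, FOXM1 and MYBL2, genes of cycling cells, took the directions of the class in both lines, and CDKN1A did not. MKI67, a marker of cycling cells, averaged 60.4 ± 8.15 CPM with VE-822 and 284 ± 18.9 CPM with DMSO in 92.1 (all such values are mean ± SD with n = 3), and 253 ± 3.46 CPM with VE-822 and 111 ± 2.98 CPM with DMSO in MP38. FOXM1, a transcription factor of G2 phase and mitosis, averaged 29.7 ± 2.64 CPM with VE-822 and 111 ± 16.9 CPM with DMSO in 92.1, and 39.2 ± 1.49 CPM with VE-822 and 23.4 ± 0.790 CPM with DMSO in MP38. MYBL2, a transcription factor of the MMB complex, averaged 47.5 ± 4.88 CPM with VE-822 and 202 ± 36.8 CPM with DMSO in 92.1, and 78.4 ± 0.271 CPM with VE-822 and 40.0 ± 1.22 CPM with DMSO in MP38. CDKN1A, an inhibitor of the cell cycle, averaged 511 ± 52.4 CPM with VE-822 and 18.4 ± 2.23 CPM with DMSO in 92.1, and 44.1 ± 7.39 CPM with VE-822 and 10.4 ± 0.743 CPM with DMSO in MP38. CDKN1A thus rose in both lines (adjusted p = 4.19e-07 in 92.1 and 7.53e-14 in MP38). The part of a changed share of cycling cells in the kinesin values was not tested.

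The response differed between the lines for 29 of 39 members tested, where 40.9% of all 24958 genes tested in that fit were called. This was the difference of the log2 responses, 92.1 minus MP38, tested in a joint fit of all 12 libraries. All 12 mitotic kinesins had a negative difference, from -3.65 to -2.21, with a median of -3.04 beside 0.11 for all genes, of which 18.8% were called negative. KIF20A differed most (-3.65 ± 0.0831, adjusted p = 3.6e-13), followed by KIF14 (-3.37 ± 0.0966) and KIF4A (-3.37 ± 0.102). KIF22 differed least of the class (-2.21 ± 0.0784, adjusted p = 4.71e-12). Among transport kinesins 5 differences were positive, 6 were negative and 4 were not past the threshold. Among other kinesins 2 were positive, 4 were negative and 6 were not past it, and 22.1% of all genes were called positive. The differences of KIF3B (-0.17 ± 0.0668, adjusted p = 0.0498), KIF1B (-0.19 ± 0.0685, adjusted p = 0.0355) and KIF13A (0.32 ± 0.0903, adjusted p = 0.00906) were lost in 10, 9 and 5 of 23 other settings. Leaving out VE-822 library 1 of MP38 gave -0.17 for KIF3B (adjusted p = 0.0815) and -0.20 for KIF1B (adjusted p = 0.0564), and both calls were also lost without DMSO library 1 of 92.1, as was that of KIF3B without DMSO library 2. The call of KIF13A was lost without VE-822 library 1 or 2 of 92.1 or VE-822 library 2 or DMSO library 1 or 3 of MP38, with differences of 0.25 to 0.27. Other settings also added calls. KIF13B (-0.18, adjusted p = 0.0571), KIF21A (0.22, adjusted p = 0.0703) and KIF26A (-1.75, adjusted p = 0.101) passed the threshold in 10, 9 and 7 of 23. KIF7 did so in 5 of 23, KIF5A in 2 of 22 and KIF17 in 1 of 23. KIF13B and KIF26A were among those called without DMSO library 3 of 92.1.

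Few transport kinesins were called in 92.1, while calls in both directions were made in MP38. In 92.1 2 of 14 tested rose, 1 fell and 11 did not pass the threshold, with a median of 0.05, where 20.3% of all genes were called higher and 39.9% were called in either direction. In MP38 9 of 15 rose, 5 fell and 1 did not pass, with a median of 0.14, where 25.4% of all genes were called lower and 52.3% were called in either direction. The groups did not overlap for 4 transport genes above and 1 below in 92.1, beside 27.8% and 25.1% of all genes, and for 9 above and 5 below in MP38, beside 29.7% and 29.0%. Without DMSO library 3 of 92.1 the counts became 4 higher (KIF13A, KIF17, KIF5C and KIFC2), 4 lower (KIF3B, KIF3C, KIF5B and KIFC3) and 7 not past the threshold of 15 tested, where 26.8% of all genes were called higher and 29.0% lower. Without that library the log2 fold changes in 92.1 were 0.12 for KIF13A (adjusted p = 0.00329) and -0.13 for KIF3B (adjusted p = 0.00428). They were -0.12 for KIF3C (adjusted p = 0.0113) and -0.10 for KIFC3 (adjusted p = 0.0167). On the log2(FPKM + pseudocount) scale 4 or 5 transport kinesins were called higher in MP38, depending on the pseudocount and filter.

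Kinesin-1 hauls vesicles and mitochondria, and KIF5B is its heavy chain in most tissues. KIF5B was the most abundant kinesin per length in all 4 groups, at 44.1 ± 0.494 FPKM with VE-822 and 47.7 ± 1.56 FPKM with DMSO in 92.1, and at 39.7 ± 1.11 FPKM with VE-822 and 34.3 ± 0.434 FPKM with DMSO in MP38. Its CPM were 259, 254 and 246 in treated 92.1 libraries, against 297, 284 and 279 in DMSO libraries. MP38 had 239.8, 231 and 237 CPM with VE-822, against 200.1, 200.0 and 197 CPM with DMSO. The groups did not overlap in either line, and treated libraries were lower in 92.1 (-0.18 ± 0.0473, adjusted p = 0.0153) and higher in MP38 (0.25 ± 0.0358, adjusted p = 6.81e-06). The call in 92.1 was lost in 4 of 17 other settings, among them leaving out VE-822 library 2 or 3 and scaling by library size alone. KIF5B changed in the same directions as the mitotic class, by a smaller amount than any mitotic kinesin.

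KIF5A and KIF5C are the heavy chains of neurons. KIF5C was rare in 92.1, with 0.504, 0.388 and 0.398 CPM under VE-822 and 0.265, 0.179 and 0.224 CPM under DMSO, and its call there (0.95 ± 0.238, adjusted p = 0.0125) rests on few reads and was lost in 4 of 16 other settings, among them leaving out VE-822 library 1. In MP38 KIF5C had 5.43, 5.41 and 5.05 CPM with VE-822 and 8.19, 8.48 and 8.40 CPM with DMSO (-0.66 ± 0.0765, adjusted p = 3.67e-07). It moved up in 92.1 and down in MP38, opposite to KIF5B, and the difference between the lines was 1.64 ± 0.204. An antisense gene, KIF5C-AS1, overlaps KIF5C, and strand use was not stated. KIF5A was not tested in 92.1 (10, 14 and 16 reads with VE-822, 9, 4 and 3 with DMSO) and rose in MP38 at a very low level, with 33, 32 and 38 reads under VE-822 and 13, 16 and 14 under DMSO (1.40 ± 0.300). DCTN2, which overlaps KIF5A, had 6386 to 7322 reads per library in MP38, and strand use was not stated.

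Kinesin-2 motors carry components into cilia and move melanosomes in frog melanophores. Of KIF3A, KIF3B and KIF3C none was called in 92.1, where the log2 fold change was 0.04 for KIF3A, -0.06 for KIF3B and -0.03 for KIF3C. KIF3C, a partner of KIF3A that is known from neurons, had 33.6, 32.2 and 34.0 CPM with VE-822, against 35.4, 35.4 and 30.9 CPM with DMSO in 92.1. In MP38 it had 109, 112 and 113 CPM with VE-822, against 73.8, 75.0 and 72.4 CPM with DMSO. KIF3C groups overlapped in 92.1 and were apart in MP38 (0.60 ± 0.0364). KIF3B rose slightly in MP38 (0.14 ± 0.0372), a call lost in 3 of 17 other settings. KIF3A, the usual partner of KIF3B, fell there (-0.25 ± 0.0532). KIF17, a further kinesin-2 motor, had 3.32, 3.05 and 3.38 CPM with VE-822 and 2.21, 2.24 and 3.26 CPM with DMSO in 92.1, where DMSO library 3 lay among the treated libraries. Its log2 fold change in 92.1 was 0.34 over all libraries (adjusted p = 0.121). Leaving out DMSO library 3 gave 0.51 (adjusted p = 0.000219). In MP38 it was at 21, 33 and 43 reads with VE-822 and 12, 25 and 15 reads with DMSO, and its call (1.03 ± 0.343) was lost in 6 of 16 other settings, among them leaving out VE-822 library 3 or DMSO library 1 or 3.

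Kinesins with the motor at the C-terminal end can move towards microtubule minus ends. KIFC2, known from neurons, was measured at 71.7, 72.9 and 72.9 CPM in treated 92.1 libraries and at 43.4, 44.3 and 40.8 CPM in DMSO libraries. In MP38 it was at 98.7, 103 and 108 CPM with VE-822 and at 136, 139.8 and 138 CPM with DMSO. KIFC2 thus rose in 92.1 (0.76 ± 0.0498, adjusted p = 8.85e-06) and fell in MP38 (-0.42 ± 0.0389, adjusted p = 1.64e-08), with no overlap in either line. The difference between lines was 1.20 ± 0.0661, so KIFC2 and KIF5C took the direction opposite to that of the mitotic class in both lines. KIFC3, which acts at cell junctions and the Golgi apparatus, had 59.7, 61.1 and 57.1 CPM with VE-822 and 62.7, 61.7 and 58.7 CPM with DMSO in 92.1 (-0.04 ± 0.0507, adjusted p = 0.549), and 131, 137 and 144 CPM with VE-822 and 174, 172 and 167 CPM with DMSO in MP38 (-0.31 ± 0.0398). Its groups overlapped in 92.1 and were apart in MP38.

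The kinesin-3 family moves vesicles, endosomes and mitochondria. KIF16B, a motor of early endosomes, had overlapping groups in 92.1, with 21.2, 20.3 and 20.8 CPM under VE-822 and 21.1, 21.3 and 19.9 CPM under DMSO. It rose in MP38, with 27.3, 28.4 and 28.2 CPM under VE-822, against 23.0, 21.8 and 21.1 CPM under DMSO (0.35 ± 0.0486). KIF13A, which sorts melanosomal cargo from endosomes in melanocytes, had 176, 173 and 163 CPM with VE-822 and 155, 152 and 181 CPM with DMSO in 92.1 (0.07 ± 0.0733, adjusted p = 0.489), and the highest value was that of DMSO library 3. In MP38 it fell to 37.7, 36.9 and 38.7 CPM with VE-822, against 45.1, 41.5 and 45.8 CPM with DMSO (-0.22 ± 0.0451). KIF13B (0.26 ± 0.0489) and KIF1B (0.14 ± 0.0406) rose in MP38 and were not called in 92.1, and KIF1C, a vesicle motor, was not called in either line. The call of KIF1B in MP38 was lost in 3 of 17 other settings. KIF1C had 199, 193 and 194 CPM with VE-822 and 188, 186 and 146 CPM with DMSO in 92.1, where DMSO library 3 was the lowest. KIF1A, a motor of synaptic vesicle precursors, was common in 92.1, with 46.4, 45.4 and 44.0 CPM under VE-822 and 43.2, 42.4 and 29.9 CPM under DMSO (0.23 ± 0.125, adjusted p = 0.171). Without DMSO library 3 the log2 fold change in 92.1 was 0.05 for KIF1A (adjusted p = 0.234) and 0.03 for KIF1C (adjusted p = 0.371). In MP38 it had 15, 16 and 14 reads with VE-822 and 3, 7 and 1 with DMSO, so its call there (2.13 ± 0.515) and its difference between lines (-1.89 ± 0.588) rest on few reads. That difference changed sign, to 0.20, when FPKM with a pseudocount of 1 replaced counts, and its call was lost without DMSO library 3 of MP38 (-1.48, adjusted p = 0.0595).

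**Figure D4:**
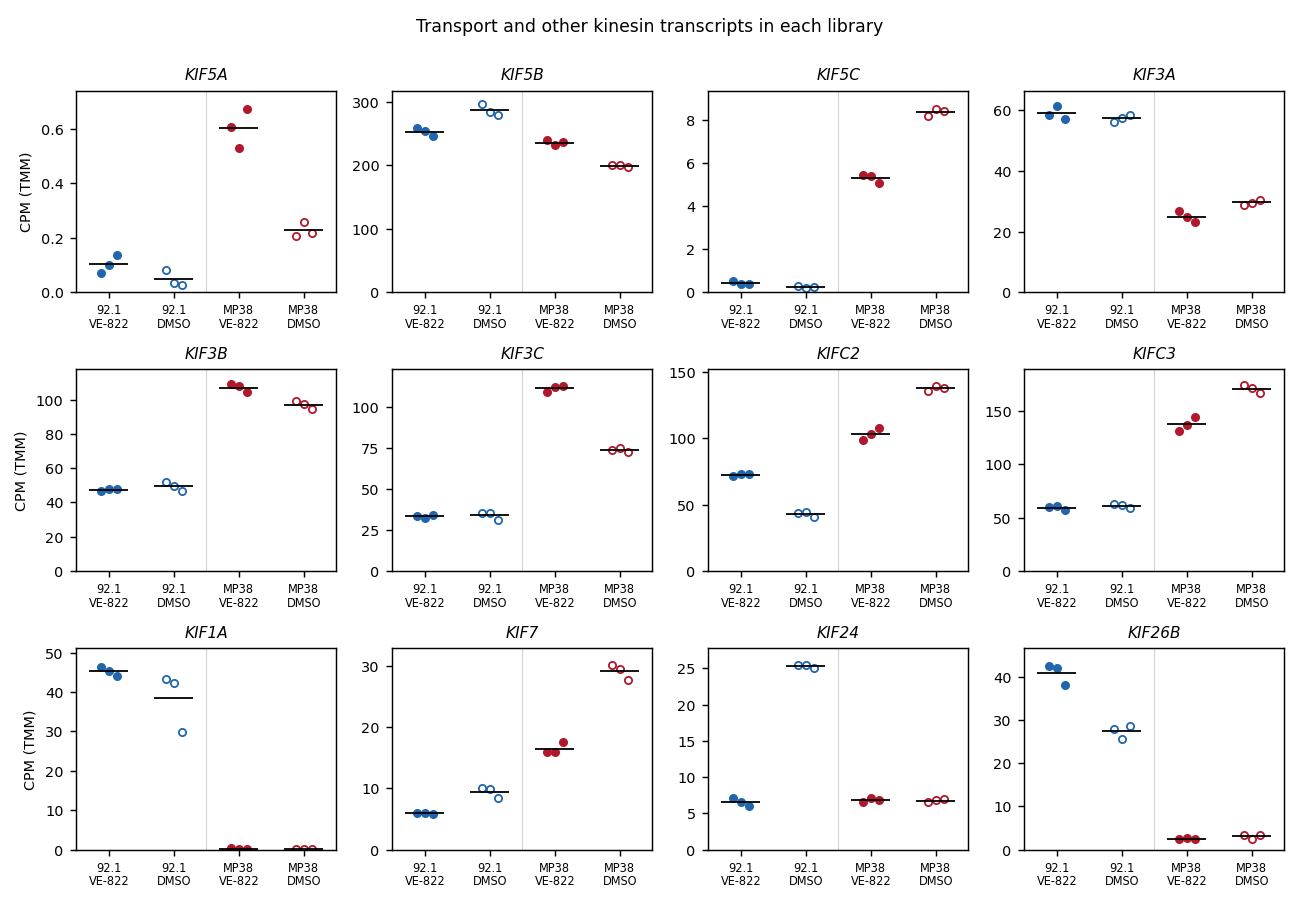
CPM (y axis, TMM-scaled, from 0) of 9 transport kinesins and of KIF7, KIF24 and KIF26B in each library, with VE-822 (filled) or DMSO (open), in 92.1 (blue) and MP38 (red). Lines are group means of 3 libraries. KIF5C and KIFC2 are higher with VE-822 in 92.1 and lower in MP38.

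Of the other kinesins 12 were tested in 92.1, where 1 rose, 5 fell and 6 did not pass the threshold, and 9 in MP38, where 3 rose, 3 fell and 3 did not pass. Over all genes 20.3% were called higher and 19.6% lower in 92.1, and 26.9% higher and 25.4% lower in MP38. Leaving out DMSO library 3 of 92.1 gave 2 higher, 5 lower and 5 not past the threshold, where 26.8% of all genes were higher and 29.0% lower. KIF24 removes tubulin at centrioles and restrains the growth of cilia. Its levels were 7.06, 6.54 and 6.05 CPM with VE-822, against 25.4, 25.5 and 25.0 CPM with DMSO in 92.1. In MP38 they were 6.61, 7.12 and 6.78 CPM with VE-822, against 6.52, 6.84 and 6.92 CPM with DMSO. KIF24 fell in 92.1 (-1.95 ± 0.0717, adjusted p = 6.57e-07) within the range of the mitotic class, but its groups overlapped in MP38 (0.02 ± 0.0765, adjusted p = 0.873), and the difference between lines was -1.93 ± 0.0999. UBAP1 overlaps this gene, and strand use was not stated. KIF2A, a depolymerase at spindle poles and in neurons, was not placed in the mitotic class. It had 126, 127 and 122 CPM with VE-822 and 174, 167 and 184 CPM with DMSO in 92.1 (-0.49 ± 0.0507). In MP38 KIF2A had 73.4, 70.2 and 72.9 CPM with VE-822 and 67.1, 67.4 and 67.6 CPM with DMSO. The call of this small rise (0.10 ± 0.0371, adjusted p = 0.0299) was lost in 11 of 17 other settings. Among them were leaving out VE-822 library 1 (0.09, adjusted p = 0.0813) or any 1 of the DMSO libraries. The change of KIF2A lay outside the range of the mitotic class in both lines, so counting it there would widen both ranges.

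KIF7 shapes Hedgehog signalling at the tip of the primary cilium. It had 6.02, 6.03 and 5.85 CPM with VE-822 and 10.04, 9.93 and 8.45 CPM with DMSO in 92.1, and 16.0, 15.9 and 17.5 CPM with VE-822 and 30.1, 29.5 and 27.7 CPM with DMSO in MP38. With all libraries KIF7 was the sole member called lower in both lines, with log2 fold changes of -0.67 ± 0.0850 in 92.1 and -0.82 ± 0.0537 in MP38. The difference between lines was 0.19 ± 0.104 (adjusted p = 0.172), and it passed the threshold in 5 of 23 other settings. Without DMSO library 3 of 92.1, KIFC3 was also called lower in both lines (-0.10 in 92.1, adjusted p = 0.0167). KIF7 overlaps TICRR in the tables. KIF26B, a kinesin of cell polarity and signalling, rose in 92.1, with 42.4, 42.1 and 38.0 CPM under VE-822 and 27.9, 25.7 and 28.7 CPM under DMSO (0.57 ± 0.0675). In MP38 it was rarer, with 2.33, 2.57 and 2.45 CPM under VE-822 and 3.33, 2.53 and 3.44 CPM under DMSO, and its call there (-0.34 ± 0.131, adjusted p = 0.0369) was lost in 10 of 17 other settings, among them leaving out any 1 of the VE-822 libraries or DMSO library 1 or 3 (-0.26 without the last, adjusted p = 0.143). Its relative KIF26A had 3.26, 3.17 and 2.74 CPM with VE-822 and 9.89, 10.9 and 5.24 CPM with DMSO in 92.1 (-1.50 ± 0.242), where DMSO library 3 lay between the treated libraries and the other DMSO libraries. KIF26A was too low to be tested in MP38.

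KIF6 and KIF9 are kinesins of motile cilia. KIF6 had 8.83, 8.96 and 8.55 CPM with VE-822 and 8.09, 7.76 and 8.47 CPM with DMSO in 92.1 and did not pass the threshold there (0.12 ± 0.0685, adjusted p = 0.216). In MP38 KIF6 had 32.0, 33.5 and 37.3 CPM with VE-822, against 15.4, 14.5 and 12.4 CPM with DMSO (1.28 ± 0.0686), an increase within the range of the mitotic class there, and the difference between lines was -1.13 ± 0.112. KIF9 had 9.55, 10.2 and 10.4 CPM with VE-822 and 8.34, 8.40 and 7.84 CPM with DMSO in MP38 (0.29 ± 0.0692), where KLHL18 and an antisense gene overlap it. KIF27, a relative of KIF7, had 3.97, 3.07 and 3.71 CPM with VE-822 and 4.83, 4.33 and 4.43 CPM with DMSO in MP38 (-0.34 ± 0.108), a call lost in 4 of 17 other settings, among them leaving out VE-822 library 2 (-0.24, adjusted p = 0.088) or DMSO library 1. KIF21B, which regulates microtubule growth, had 21.2, 21.7 and 20.7 CPM with VE-822 and 28.6, 25.4 and 36.6 CPM with DMSO in 92.1 (-0.51 ± 0.119), and DMSO library 3 was the highest. KIF21A, its relative, was the most abundant member of this class per length in 92.1, at 28.2 ± 1.32 FPKM with VE-822 and 23.8 ± 1.99 FPKM with DMSO, and was not called there (adjusted p = 0.0757), though it passed the threshold in 6 of 17 other settings. Its log2 fold change in 92.1 was 0.18, and 0.08 without DMSO library 3 (adjusted p = 0.0697), which was its lowest DMSO library. KIF12 and KIF25 were tested in 92.1 alone and were not called there, but KIF25 (0.24, adjusted p = 0.295) was called higher without DMSO library 3 (0.42, adjusted p = 0.0095). KIF19 had at most 6 reads in a library and was not tested in either line.

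Summed per length, the mitotic class made up a different share of all kinesin transcripts in treated and DMSO libraries. In 92.1 its share of the summed kinesin FPKM was 20.5%, 20.2% and 18.5% in the VE-822 libraries, against 48.5%, 48.6% and 48.5% in the DMSO libraries. In MP38 its share was 45.9%, 45.7% and 45.1% with VE-822, against 28.8%, 28.2% and 29.0% with DMSO. The groups did not overlap, and DMSO library 3 of 92.1 lay between the other DMSO libraries in this share. The sum of the class averaged 47.1 ± 3.54 FPKM with VE-822 and 172 ± 5.36 FPKM with DMSO in 92.1, and 149 ± 3.00 FPKM with VE-822 and 71.4 ± 0.652 FPKM with DMSO in MP38. The transport class averaged 143 ± 0.352 FPKM with VE-822 and 132 ± 4.13 FPKM with DMSO in 92.1, and 158 ± 0.737 FPKM with VE-822 and 157 ± 2.17 FPKM with DMSO in MP38. The mitotic to transport ratio was 0.330 ± 0.0246 with VE-822 and 1.30 ± 0.00282 with DMSO in 92.1, and 0.942 ± 0.0150 with VE-822 and 0.454 ± 0.0101 with DMSO in MP38. A few abundant genes, KIF5B foremost, set the transport sum, and no test was made on these sums. FPKM carry no TMM factor. That factor was 1.009 to 1.042 with VE-822 and 0.973 to 0.981 with DMSO in 92.1. In MP38 it was 0.962 to 1.002 with VE-822 and 1.011 to 1.018 with DMSO. A small difference in a class sum, such as that of the transport class in 92.1, may thus partly reflect scaling. Shares and ratios within a library do not depend on that factor.

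**Figure D5:**
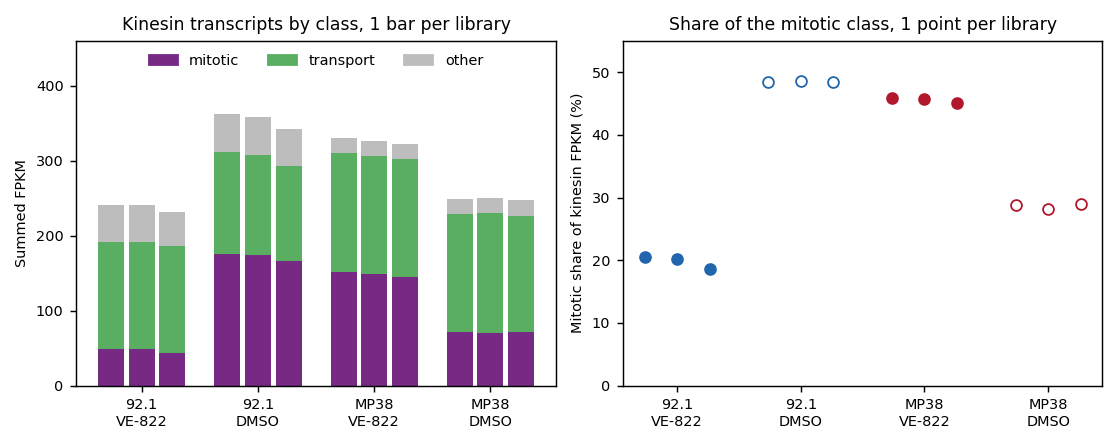
Left, FPKM summed over the mitotic, transport and other kinesins in each library (1 bar each, from 0). Right, the mitotic share of that sum in percent, with VE-822 (filled) or DMSO (open). The share averages 19.8% in treated and 48.5% in DMSO libraries of 92.1, and 45.6% in treated and 28.7% in DMSO libraries of MP38.

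Genes that work with these motors were examined as 3 lists. Of 16 partners of the mitotic kinesins all fell in 92.1, with a median of -1.69, and in MP38 14 rose, NUMA1 fell (-0.14) and NUSAP1 did not pass the threshold (0.43), with a median of 1.11. The value of NUSAP1 in MP38 rests on few reads, 14, 17 and 18 with VE-822 and 10, 12 and 18 with DMSO. Over all genes 19.6% were called lower in 92.1 and 26.9% higher in MP38. The 16 partners were again all called lower without DMSO library 3 of 92.1, where 29.0% of all genes were. CENPE, the kinetochore motor of the kinesin-7 family, changed by -2.05 ± 0.0995 in 92.1 and by 1.90 ± 0.0407 in MP38, and its difference between lines (-3.92 ± 0.112) was further from 0 than that of any KIF gene. The spindle protein HMMR changed by -1.60 ± 0.0898 in 92.1 and 1.88 ± 0.0479 in MP38, and the mitotic kinase PLK1 by -1.66 ± 0.0602 in 92.1 and 1.57 ± 0.0426 in MP38. AURKB, the kinase that KIF20A brings to the central spindle, changed by -2.29 ± 0.0946 in 92.1 and by 1.24 ± 0.0426 in MP38. CIT, the citron kinase recruited by KIF14, changed by -2.16 ± 0.0859 in 92.1 and by 0.76 ± 0.0365 in MP38.

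Of 24 light chains and adaptors of transport kinesins 5 rose, 3 fell and 16 did not pass the threshold in 92.1, and 11 rose, 7 fell and 6 did not pass in MP38, with medians of 0.00 in 92.1 and 0.08 in MP38. Over all genes 39.9% were called in either direction in 92.1 and 52.3% in MP38. When DMSO library 3 of 92.1 was left out, 6 of the 24 were called higher, 10 were called lower and 8 were not called, where 26.8% of all genes were higher and 29.0% lower. KIFAP3, the accessory subunit of kinesin-2, had a log2 fold change of 0.04 in 92.1 (adjusted p = 0.605) and fell in MP38 with -0.19 (adjusted p = 0.0025). TRAK2, which links kinesin-1 to mitochondria, had 76.5, 75.4 and 75.3 CPM with VE-822 and 135, 128 and 205 CPM with DMSO in 92.1, where DMSO library 3 was the highest. In MP38 TRAK2 had 135, 128 and 134 CPM with VE-822 and 66.6, 65.0 and 59.2 CPM with DMSO. It fell in 92.1 (-1.04 ± 0.157, and -0.83 without DMSO library 3) and rose in MP38 (1.06 ± 0.0438). FEZ1, an adaptor of kinesin-1 in neurons, moved the other way, with 2.28, 2.32 and 2.17 CPM under VE-822 and 1.11, 0.920 and 0.881 CPM under DMSO in 92.1, and 2.94, 2.79 and 3.27 CPM under VE-822 and 5.45, 6.31 and 5.96 CPM under DMSO in MP38. The difference between lines was -2.07 ± 0.172 for TRAK2 and 2.23 ± 0.163 for FEZ1. The light chain KLC3 rose in both lines (0.84 in 92.1 and 1.20 in MP38).

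Dynein and dynactin move cargo towards microtubule minus ends, opposite to most kinesins. Of 21 of their genes tested 2 rose, 2 fell and 17 did not pass the threshold in 92.1, and 16 rose, 2 fell and 3 did not pass in MP38, with medians of 0.00 in 92.1 and 0.27 in MP38. Over all genes 39.9% were called in either direction in 92.1, and 26.9% were called higher and 25.4% lower in MP38. Without DMSO library 3 of 92.1 the list had 3 higher, 7 lower and 11 not past the threshold, where 26.8% of all genes were higher and 29.0% lower. The heavy chain DYNC1H1 averaged 424 ± 2.04 CPM with VE-822 and 423 ± 14.4 CPM with DMSO in 92.1 (0.00 ± 0.0455), and 982 ± 19.4 CPM with VE-822 and 681 ± 21.7 CPM with DMSO in MP38 (0.53 ± 0.0395). NDE1, a dynein regulator that also acts in mitosis, fell in 92.1 (-0.92 ± 0.0714) and rose in MP38 (0.32 ± 0.0491), the directions of the mitotic kinesins. The intermediate chain DYNC1I1 rose in both lines, by 0.41 in 92.1 and 0.97 in MP38. The log2 fold change of ACTR1A, an actin-related protein of dynactin, was 0.11 in 92.1 (adjusted p = 0.378) and 0.52 in MP38 (adjusted p = 2.61e-10). Without DMSO library 3 the value in 92.1 was -0.03 for ACTR1A (adjusted p = 0.341) and -0.05 for DYNC1H1 (adjusted p = 0.157), so both turned direction. For the adaptor BICD1 the log2 fold change was 0.28 in 92.1 (adjusted p = 0.0168) and -0.06 in MP38 (adjusted p = 0.245).

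Over all genes, 256 of the 628 tested in 92.1 whose promoter window held both motifs (40.8%) were called lower, and 26.2% of all 12773 with a promoter were. In MP38 263 of 606 such genes (43.4%) were called higher, and 33.1% of all 12507 with a promoter were. In the other direction, 16.7% of genes with both motifs were higher in 92.1, beside 21.9% of all with a promoter. In MP38 22.9% of them were lower, beside 28.3%. Genes with both motifs had a median log2 fold change of -0.15 in 92.1 and 0.10 in MP38. Of genes with neither motif 24.2% were lower in 92.1 and 32.1% higher in MP38. These shares include the kinesins and were not tested against each other.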

How the data were processed

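Poly(A) RNA of 92.1 and MP38 cells was sequenced in 12 libraries. The submitters' processing notes name cutadapt 4.8, FastQC 0.12.1, MultiQC 1.7, STAR 2.7.11a, featureCounts 2.0.6 and GRCh38.p13; parameters and strand use are not given in the sources used here. The authors deposited whole-number counts per gene and FPKM for each line; FPKM recomputed from the counts matched the deposited FPKM within rounding. Counts were tested in R 4.3.3 with edgeR 4.0.16 (filterByExpr with minimum count 10 and minimum total 15, TMM, quasi-likelihood F test, Benjamini-Hochberg over all genes tested, threshold 0.05), for VE-822 against DMSO in each line and, in a joint fit of features in both tables, for the difference between lines. There the lines share 1 dispersion estimate per gene. A standard error is the absolute log2 fold change divided by the square root of F. CPM are TMM-scaled. The edgeR fits of each line and of the difference were first run on counts simulated from edgeR's own model with known changes. No simulated library was made to stand apart, so this does not show how the fits handle DMSO library 3 of 92.1. The alternative fits were not run on simulated counts. DESeq2 1.42.0 and limma 3.58.1 on log2(FPKM + pseudocount of 1 or 0.1) were alternatives.

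Values per library are given for tested mitotic kinesins, for transport and other kinesins with a mean of at least 1 CPM in a line that were called in both lines or among the 5 with the largest change of their class, and for some others named after their values were seen. From each companion list CENPE, KIFAP3 and the 3 called genes with the largest change in a line were named. The members, classes and lists were chosen with earlier results of these data known. KIF2B was not analysed here. Promoters came from a RefSeq table on GRCh38.p14, with windows searched for the CCAAT box and both CHR motifs on both strands; KIF5A, KIF13B, KIF19, KIF21B, KIF26B, KIF27, KIFC2 and KIFC3 were not searched.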

Additional observations from a re-analysis of the deposited data

Results flagged for a closer look

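For 29 members the response to VE-822 differed between the lines in the test of the difference itself, the log2 response of 92.1 minus that of MP38. Among mitotic kinesins the difference was -2.96 for KIF11, -3.05 for KIF15, -3.04 for KIFC1, -3.37 for KIF4A, -2.21 for KIF22, -3.19 for KIF18A, -2.99 for KIF18B, -3.20 for KIF2C, -3.37 for KIF14, -3.65 for KIF20A, -2.67 for KIF20B and -2.93 for KIF23. Among transport kinesins it was positive for KIF3A (0.32), KIF5C (1.64), KIF13A (0.32), KIFC2 (1.20) and KIFC3 (0.30). It was negative for KIF1A (-1.89), KIF1B (-0.19), KIF3B (-0.17), KIF3C (-0.60), KIF5B (-0.40) and KIF16B (-0.32). Among other kinesins it was positive for KIF26B (0.94) and KIF27 (0.51) and negative for KIF2A (-0.56), KIF6 (-1.13), KIF21B (-0.67) and KIF24 (-1.93). With 3 libraries a group, no rule screened the values of single genes for a library far from its group. DMSO library 3 of 92.1 stood apart over all genes, as described above.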

How the results depend on the processing

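Under all settings run, the 12 mitotic kinesins were called lower in 92.1, higher in MP38 and different between the lines. Of 2147 member values under other settings 2019 kept direction and call, 77 lost the call, 48 gained it and 3 reversed. The reversed values were the KIF1A difference between lines, 0.20 with limma on log2(FPKM + 1), 0.16 with log2(FPKM + 0.1) and 0.20 with log2(FPKM + 1) and no filter. Of 14 transport kinesins called in MP38, 9 were called with log2(FPKM + 1). The 9 called higher there became 4 with log2(FPKM + 1), 5 with log2(FPKM + 0.1) and 5 with log2(FPKM + 1) and no filter. In 92.1, 3 were called (2 higher, 1 lower). This became 1 (1 higher, 0 lower) with log2(FPKM + 1) and no filter, and 5 (4 higher) in the joint fit. Higher calls were 1 with log2(FPKM + 1), with log2(FPKM + 0.1) and with genes of at least 1 CPM, and lower calls were 0 with library size only. Leaving out 1 library gave 2 to 8 transport calls in 92.1, 1 to 4 higher and 0 to 4 lower; 8 came without DMSO library 3. All genes called lower in 92.1 numbered 4498, 2757 with log2(FPKM + 1) and no filter, and 3343 to 6899 when 1 library was left out, with 6899 without DMSO library 3. A replicate block, the library number as a factor, gave 12 mitotic calls in each line, 3 transport calls in 92.1, 14 in MP38 and 29 differences; it ended the calls of KIF2A and KIF26B in MP38 and the differences of KIF1B and KIF3B. Libraries of the same number correlated by 0.041 to 0.082 in 92.1 and by -0.021 to -0.0030 in MP38, all under 0.1. In 92.1 each library correlated best with its own number, in MP38 not. Correlations this small cannot show whether libraries of the same number were paired, and the labels do not state it. Robust fitting and weights for each group were added after seeing the data. With a pseudocount the FPKM scale understates changes of low genes, and precision for KIF1A, KIF5A and KIF17 in MP38 and KIF5C in 92.1 is limited by few reads. KIF1B and KIF3B also lost their MP38 calls on that scale but were not low, at 5.61 and 16.1 FPKM with DMSO.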
